A study of Mus musculus with 24 samples.

Results

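The small leucine-rich proteoglycans (SLRPs) are a family of secreted matrix proteins built from leucine-rich repeats, most of which carry chondroitin, dermatan or keratan sulfate chains. They sit on collagen fibrils and set fibril spacing and diameter, and some of them bind transforming growth factor beta (TGF-β) or act on cell surface receptors. In lung they are made largely by fibroblasts of the vessel and airway walls, the pleura and the septa. The genes described here are decorin (*Dcn*), biglycan (*Bgn*), asporin (*Aspn*), lumican (*Lum*), fibromodulin (*Fmod*), *Prelp*, osteomodulin (*Omd*) and osteoglycin (*Ogn*), taken by gene symbol from the chip annotation. These 8 genes, of 19057 on the chip, are covered by 15 probes. Of these, 12 probes of 7 genes lay in the brighter 50% of the chip (22640 of 45281 probes, mean log2 signal from 6.705) and were tested.

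Distal lung tissue was taken from female C57BL/6 mice aged 12.5 weeks, with 1 array for each mouse. The groups were 6 mice given bleomycin (BLM) and EXT9, 6 given BLM and EXT5, 6 given BLM and vehicle, and 6 saline controls given vehicle. BLM was injected s.c. at 50 IE per dose, 3 times per week over 2 weeks, and the EXT groups took 30 mg/kg of their compound p.o. each day from the first BLM dose. EXT9 and EXT5 are antagonists of the 5-HT2B receptor, the vehicle was Tween80 at 2.5%, and no group received a compound without BLM.

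Values are log2 of the authors' quantile normalized signals. By their sorted distributions they fall into 2 sets, here called the first and second array run, although no label gives a run or its order. The first holds 3 BLM-treated mice and 3 saline controls, and the second holds the other 3 of each and all 12 EXT-treated mice. The main fit (limma, all 24 arrays) therefore had the run as a term, and calls required p under 0.05 after Benjamini-Hochberg adjustment over all tested probes. Signals are not comparable between probes, and in whole tissue fewer cells of a type and less RNA per cell cannot be told apart. Markers of alveolar type 2 cells were at a mean log2 signal of 12.1 or higher on every array, as the tissue label implies. Markers of other tissue were graded over the arrays, and the 3 with an adipocyte marker mean above 8 are called raised. The mean of 3 adipocyte markers was 8.94 on the array of EXT5 replicate 3, 8.34 on that of BLM replicate 1 and 8.73 on that of saline replicate 4, against 6.71 to 7.67 on the other 21 arrays. *Adipoq*, the adipocyte hormone adiponectin, was at 9.50, 9.06 and 9.70 on these 3 arrays, and *Myl7*, an atrial muscle light chain, at 9.10, 9.57 and 10.19. BLM replicate 5 came next with an *Adipoq* signal of 8.13 and a *Myl7* signal of 8.73, and saline replicate 3 had a *Myl7* signal of 8.90. Saline replicate 6 was the lowest control in ciliated cell markers (8.36, against 9.26 to 9.54 in the other controls) and in smooth muscle markers (9.27, against 9.92 to 10.39).

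No SLRP probe was called with BLM alone, and the only call among the 8 member genes was a lower *Lum* signal with EXT9. Against saline controls, 1 of 12 member probes (8.33%) was lower and 0 higher in EXT9-treated mice, where 16.1% of all tested probes were called (8.37% lower, 7.78% higher). In EXT5-treated mice 0 of 12 were called against saline controls, beside 10.9% of all probes. In BLM-treated mice 0 of 12 were called, beside 0.473% of all probes. Against BLM-treated mice, 0 of 12 were called in EXT9-treated mice (5.11% of all probes) and 0 of 12 in EXT5-treated mice (4.29% of all probes). Between EXT9- and EXT5-treated mice 0 of 12 were called, with 0.446% of all probes. At an unadjusted p under 0.05 in limma, the members numbered 5 for EXT9, 2 for EXT5 and 3 for BLM against saline controls, 4 and 2 for EXT9 and EXT5 against BLM, and 1 between the compounds. The shares of all probes at that threshold were 30.4%, 23.2%, 11.9%, 22.1%, 20.5% and 13% in the same order.

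Against saline controls, more members lay below 0 than above. The median log2 difference over the 12 probes was -0.13 for EXT9 against saline controls and -0.10 for EXT5, with 2 and 3 of the 12 above 0, whereas over all probes the medians lay within 0.01 of 0 and 48.6% and 51.4% were above 0. For BLM against saline controls the median was -0.08 with 1 of 12 above 0, where 48% of all probes were. On the second-run arrays alone 4 of 12 were above 0 for BLM, 0 for EXT9 and 2 for EXT5. On the first-run arrays alone 2 of 12 were above 0 for BLM. Against BLM-treated mice the median was -0.08 for EXT9 with 5 of 12 above 0 (48.1% of all probes) and -0.0039 for EXT5 with 6 of 12 above 0 (51.1% of all probes). Several probes read the same gene, so these counts do not come from separate genes. The plot of differences shows the members in all 6 comparisons.

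**Figure D1:**
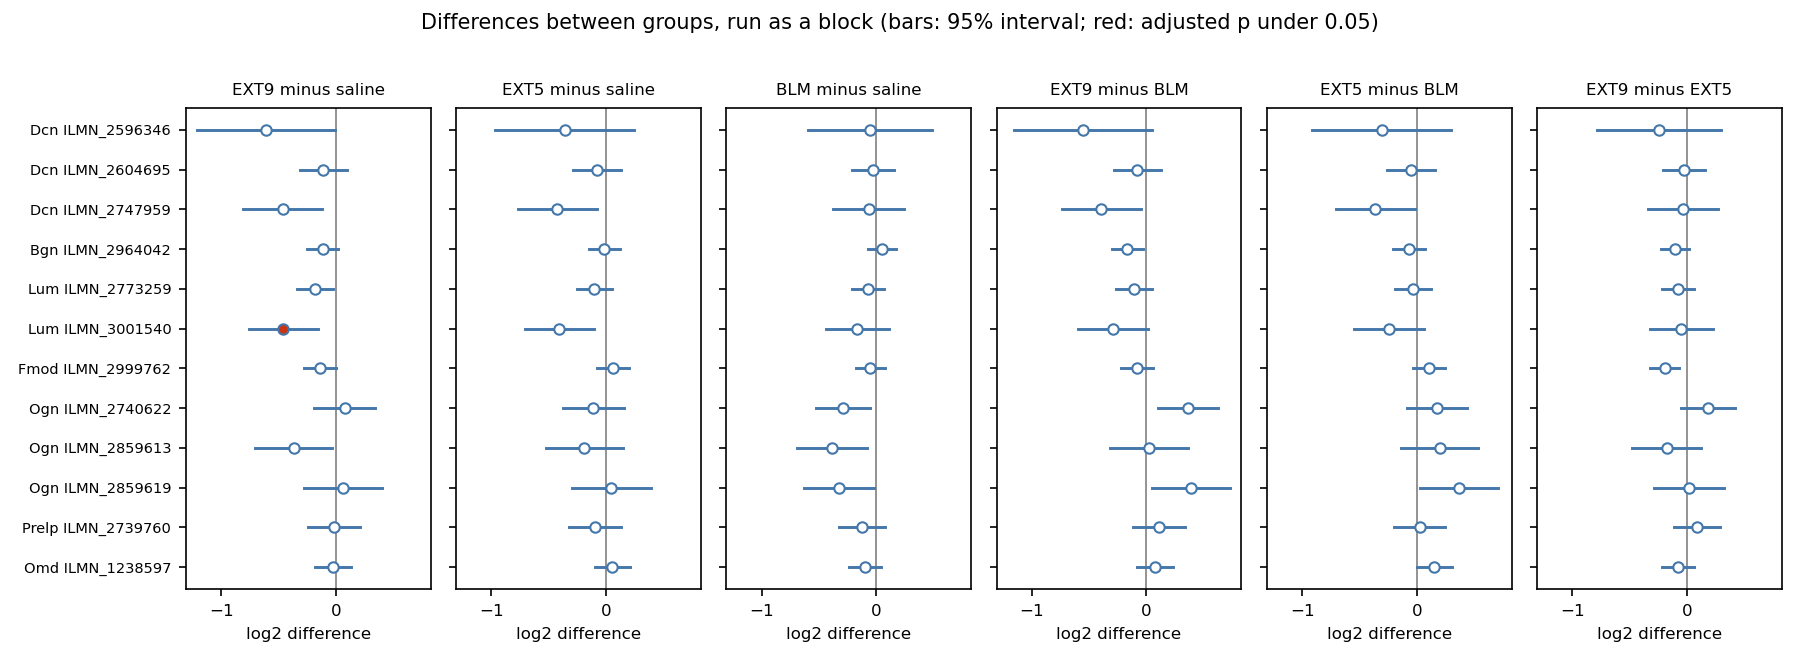
Difference in log2 signal (x axis, first group minus second) of the 12 tested probes of the family in 6 comparisons, with 95% intervals from limma and the array run as a term. The red point is the single call, *Lum* ILMN_3001540 in EXT9-treated mice against saline controls (-0.46); most intervals include 0.

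Decorin binds collagen fibrils and TGF-β through its protein core and carries a single chondroitin or dermatan sulfate chain. Its 4 probes are given singly, since they differ in brightness and spread. ILMN_2747959, the brightest (99th percentile of the chip), had a lowest, median and highest log2 signal of 11.49, 11.94 and 12.16 in EXT9-treated mice and of 11.63, 11.83 and 12.48 in EXT5-treated mice. The corresponding values were 12.01, 12.26 and 12.58 with BLM alone and 12.06, 12.31 and 12.78 in saline controls. In both EXT groups 4 of 6 mice lay below every saline control, and the groups overlapped.

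With the run in the fit, this *Dcn* probe differed by -0.46 ± 0.17 (SE, 95% interval -0.81 to -0.12) between EXT9-treated mice and saline controls, a 0.726-fold level, and it did not pass the test (limma, adjusted p = 0.0612). The difference was -0.43 ± 0.17 for EXT5 against saline controls (adjusted p = 0.109) and -0.07 ± 0.15 for BLM against saline controls (adjusted p = 0.918). Against BLM-treated mice it was -0.40 for EXT9 (adjusted p = 0.165) and -0.36 for EXT5 (adjusted p = 0.221). Each of the 3 arrays with raised adipocyte markers held the highest ILMN_2747959 signal of its group. None of these 3 is an EXT9 array. Leaving them out thus removes the highest saline signal and no EXT9 signal, which alone narrows the EXT9 difference. Without these 3 arrays the *Dcn* difference was -0.27 for EXT9 against saline controls (adjusted p = 0.242) and -0.35 for EXT5 (adjusted p = 0.186). On the second-run arrays alone the values were -0.41 and -0.37 (adjusted p = 0.236 and 0.353). The EXT9 difference passed the test in 5 of 24 fits that left out 1 array (saline replicate 2 or 6, BLM replicate 6, EXT5 replicate 3 or EXT9 replicate 1, with -0.56 to -0.46 and adjusted p from 0.0332 to 0.0469), without the run term (adjusted p = 0.0321) and with array weights (-0.51, adjusted p = 0.043). The EXT5 difference passed without EXT5 replicate 3 (-0.54, adjusted p = 0.0271) and with array weights (-0.54, adjusted p = 0.029).

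*Dcn* ILMN_2596346 was the most variable member probe, with a range of 2.37 on the log2 scale over the 24 arrays. It had a lowest, median and highest signal of 8.25, 9.60 and 10.04 in EXT9-treated mice, 9.08, 9.63 and 10.27 in EXT5-treated mice, 9.56, 10.22 and 10.31 with BLM alone and 9.60, 10.08 and 10.62 in saline controls. The low end came from EXT9 replicate 6, while 3 of 6 mice in each EXT group lay below all saline controls. The difference from saline controls was -0.61 ± 0.29 for EXT9 (adjusted p = 0.162), -0.36 ± 0.29 for EXT5 (adjusted p = 0.51) and -0.06 ± 0.26 for BLM (adjusted p = 0.967). Without EXT9 replicate 6 the EXT9 value of this *Dcn* probe was -0.37 (adjusted p = 0.339). Its intervals were wide, and that for BLM against saline controls ran from -0.60 to 0.48 on the log2 scale.

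The other *Dcn* probes were close to the dim end of the chip. ILMN_2604695 averaged 6.84 ± 0.17 in EXT9-treated mice, 6.87 ± 0.15 in EXT5-treated mice, 6.93 ± 0.09 with BLM alone and 6.95 ± 0.20 in the saline group (SD, n = 6 per group), with differences from saline controls of -0.11, -0.08 and -0.03 (adjusted p = 0.501, 0.707 and 0.946). ILMN_1254458, which the annotation ties to another transcript record than the remaining 3, was too dim to be tested. It averaged 6.67 to 6.68 in all 4 groups. Over both runs the 3 tested *Dcn* probes thus shared the order of the group means, with EXT9 lowest and saline highest, and none was called in any comparison. Within the second run the mean with BLM alone lay above that of saline controls on ILMN_2747959 (12.35 and 12.31) and ILMN_2604695 (6.94 and 6.92). On ILMN_2596346 it lay just below (10.02 and 10.03). Within the first run it lay below saline controls on all 3 probes.

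**Figure D2:**
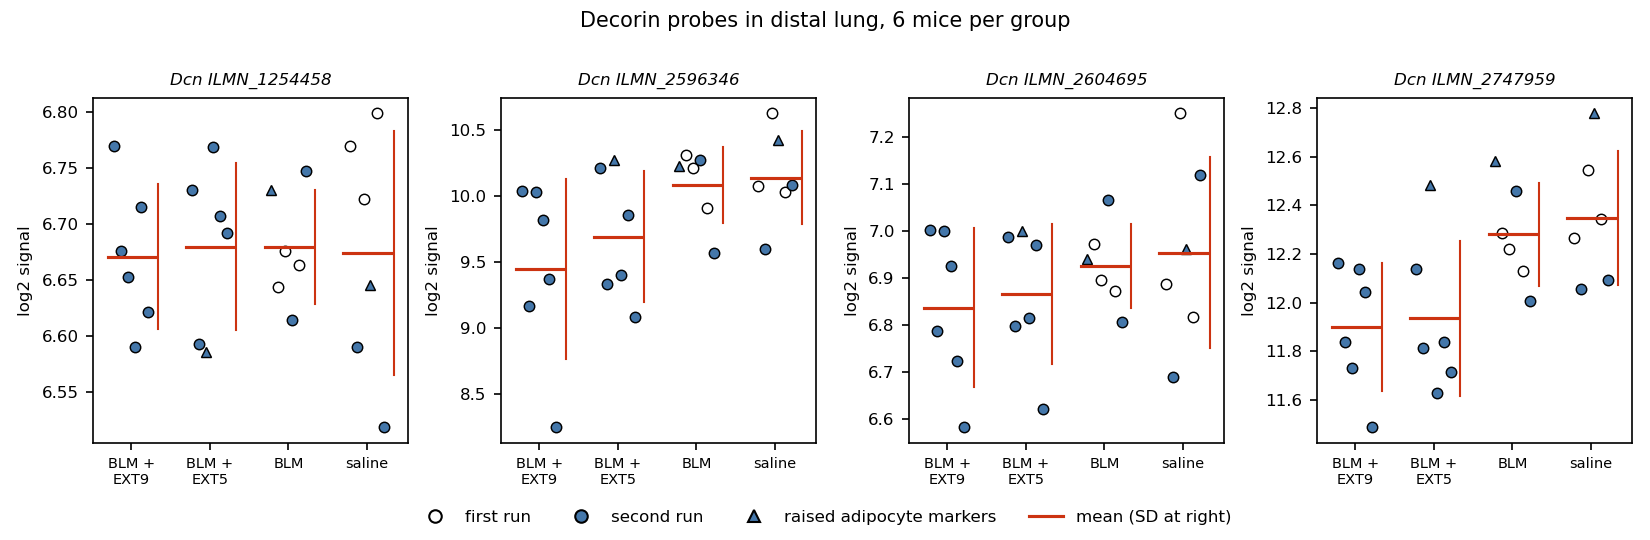
Log2 signal (y axis) of the 4 *Dcn* probes in each of 24 mice by group, with open points for the first array run, filled points for the second, triangles for the 3 arrays with raised adipocyte markers, and the mean with SD in red. ILMN_2747959 lay lower in both EXT groups with overlap, and its highest point in the EXT5, BLM and saline groups is a triangle.

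Biglycan, the close relative of decorin, carries a pair of chains and in soluble form is a ligand of Toll-like receptors. *Bgn* ILMN_2964042 was among the brightest probes of the chip and varied little. Its lowest, median and highest signals were 13.48, 13.67 and 13.76 in EXT9-treated mice, 13.56, 13.78 and 13.92 in EXT5-treated mice, 13.76, 13.89 and 14.17 with BLM alone and 13.69, 13.90 and 13.99 in saline controls. *Bgn* differed by -0.17 ± 0.07 between EXT9- and BLM-treated mice (adjusted p = 0.141), and 5 of 6 EXT9-treated mice lay below all BLM-treated mice. The first run read 0.18 higher than the second (adjusted p = 0.0257), and without the run term the *Bgn* difference was -0.26 with an adjusted p of 0.0261. BLM against saline controls gave 0.05 (95% interval -0.07 to 0.18), and EXT5 against saline controls -0.01 (-0.15 to 0.13).

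Asporin, which binds TGF-β and lacks a glycosaminoglycan chain, was read by 1 probe, too dim to be tested. *Aspn* ILMN_1231476 averaged 6.64 in EXT9-treated mice, 6.57 in EXT5-treated mice, 6.61 with BLM alone and 6.64 in saline controls, a range of 0.34 over all 24 arrays. Between EXT9- and EXT5-treated mice *Aspn* differed by 0.08 (95% interval 0.00 to 0.15; limma over all probes, adjusted p = 0.399), and its signal lay at the 31st percentile of the chip, where only large changes can be seen.

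Lumican, which carries keratan sulfate and regulates fibril assembly, gave the only call among the members. *Lum* ILMN_3001540 had a lowest, median and highest signal of 6.84, 6.90 and 7.40 in EXT9-treated mice, and of 6.79, 7.02 and 7.62 in EXT5-treated mice. The values were 7.03, 7.30 and 7.64 with BLM alone and 7.24, 7.47 and 7.66 in saline controls. In each EXT group 5 of 6 mice lay below every saline control, the exceptions being EXT9 replicate 1 (7.40) and EXT5 replicate 3 (7.62).

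This *Lum* probe fell by 0.46 ± 0.15 in EXT9-treated mice relative to saline controls, a 0.729-fold level (95% interval 0.59 to 0.90; limma, adjusted p = 0.0374). With EXT5 the difference was -0.41 ± 0.15 (adjusted p = 0.0812) and with BLM alone -0.16 ± 0.13 (adjusted p = 0.695). Against BLM-treated mice it was -0.29 for EXT9 (adjusted p = 0.249) and -0.24 for EXT5 (adjusted p = 0.383). The call was lost on the second-run arrays alone (-0.51, adjusted p = 0.0795), when all probes were tested (adjusted p = 0.061), with array weights (-0.44, adjusted p = 0.0592) and in 10 of 24 fits that left out 1 array. These were the fits without saline replicates 1, 2, 4 or 6, BLM replicates 1 or 5, or EXT9 replicates 2, 4, 5 or 6, with adjusted p up to 0.127 without saline replicate 4 (-0.39). Without EXT5 replicate 3 the EXT5 difference was -0.52 and passed the test (adjusted p = 0.0105). Each of the 3 arrays with raised adipocyte markers held the highest ILMN_3001540 signal of its group, and none of the 3 is an EXT9 array. Without them the *Lum* difference for EXT9 was -0.33 (adjusted p = 0.087), a fit that loses the highest saline signal and no EXT9 signal.

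The other *Lum* probe, ILMN_2773259, was dimmer. It averaged 6.76 ± 0.11 in EXT9-treated mice, 6.84 ± 0.16 in EXT5-treated mice, 6.96 ± 0.11 with BLM alone and 7.03 ± 0.16 in the saline group (SD, n = 6 per group). The order of the *Lum* means was that of the first probe, with -0.18 ± 0.07 for EXT9 (adjusted p = 0.106), -0.10 for EXT5 (adjusted p = 0.46) and -0.07 for BLM (adjusted p = 0.76) against saline controls. Again 5 of 6 mice of each EXT group lay below all saline controls. The first run read 0.19 higher than the second on this probe (adjusted p = 0.0328), and the saline controls of the second run alone spanned 6.89 to 6.97.

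**Figure D3:**
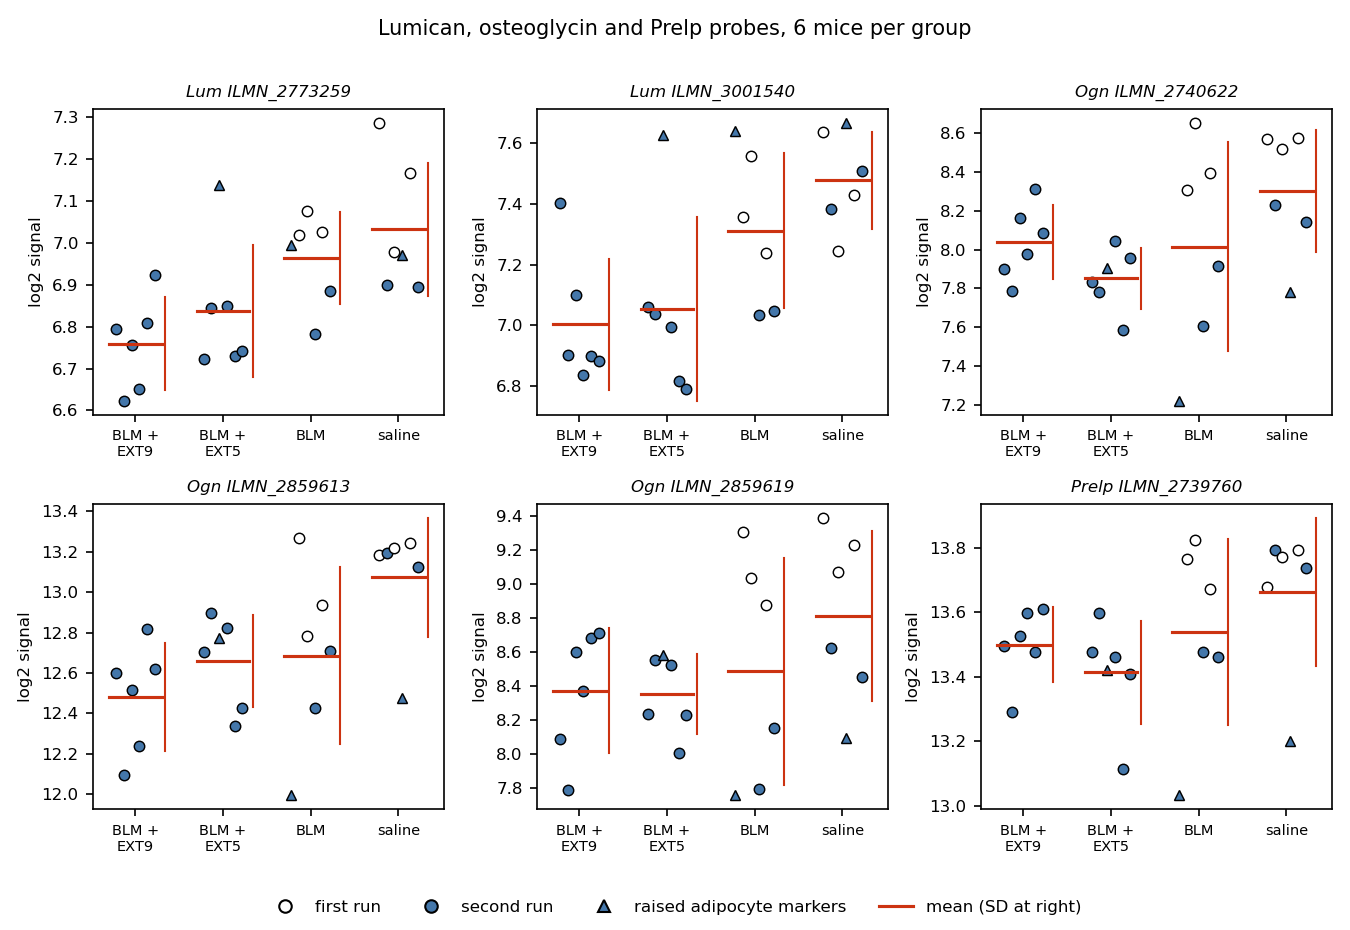
Log2 signal (y axis) of the *Lum*, *Ogn* and *Prelp* probes in each of 24 mice by group, with open points for the first array run, filled points for the second, triangles for the 3 arrays with raised adipocyte markers, and the mean with SD in red. The triangles are the highest *Lum* ILMN_3001540 points of their groups and, in BLM-treated mice and saline controls, the lowest *Ogn* and *Prelp* points.

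Fibromodulin binds collagen and helps position lysyl oxidase for cross-linking. *Fmod* ILMN_2999762 showed the clearest separation of the compounds. The 6 EXT9-treated mice spanned 6.94 to 7.08 with a median of 7.03, and the 6 EXT5-treated mice spanned 7.11 to 7.31 with a median of 7.22. Fibromodulin was the only member whose EXT9 and EXT5 groups did not overlap, as held in that direction for 0.729% of all probes.

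The *Fmod* difference between EXT9- and EXT5-treated mice was -0.19 ± 0.06 (0.874-fold, 95% interval 0.802 to 0.954), all within the second run, and it did not pass over all probes (limma, adjusted p = 0.153). BLM-treated mice spanned 6.99 to 7.43 and saline controls 6.98 to 7.43, and both groups overlapped each EXT group. Against saline controls *Fmod* differed by -0.14 for EXT9 (adjusted p = 0.181), 0.06 for EXT5 (adjusted p = 0.676) and -0.05 for BLM (adjusted p = 0.811). The second *Fmod* probe, ILMN_1230020, was too dim to be tested, at 6.64 to 6.71 in all groups, with a difference of 0.02 between EXT9- and EXT5-treated mice (95% interval -0.08 to 0.13).

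*Prelp* encodes a heparin-binding SLRP that ties basement membranes to the collagen beneath. *Prelp* ILMN_2739760 was bright, with lowest, median and highest signals of 13.29, 13.51 and 13.61 in EXT9-treated mice, 13.12, 13.44 and 13.60 in EXT5-treated mice, 13.03, 13.58 and 13.83 with BLM alone and 13.20, 13.75 and 13.79 in saline controls. The lowest BLM and saline values were those of BLM replicate 1 and saline replicate 4, both with raised adipocyte markers. Differences from saline controls were -0.01 for EXT9, -0.10 for EXT5 and -0.12 for BLM (adjusted p = 0.953, 0.66 and 0.694), with a 95% interval of -0.24 to 0.21 for EXT9.

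Osteomodulin, a keratan sulfate SLRP best known from bone, was dim. *Omd* ILMN_1238597 averaged 6.84 ± 0.13 in EXT9-treated mice, 6.92 ± 0.14 in EXT5-treated mice, 6.93 ± 0.20 with BLM alone and 7.03 ± 0.21 in saline controls. The first run read 0.33 higher (adjusted p = 0.000619), and with the run in the fit the *Omd* differences from saline controls were -0.02, 0.06 and -0.10 (adjusted p = 0.874, 0.728 and 0.622).

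Osteoglycin, also called mimecan, is a keratan sulfate SLRP of vessel walls and connective tissue. Its brightest probe, *Ogn* ILMN_2859613, had lowest, median and highest signals of 12.09, 12.56 and 12.82 in EXT9-treated mice, and 12.34, 12.74 and 12.90 in EXT5-treated mice. They were 12.00, 12.75 and 13.27 with BLM alone and 12.48, 13.19 and 13.24 in saline controls. Of the saline controls, 5 lay between 13.13 and 13.24 and 1, replicate 4, at 12.48. The dimmer probe ILMN_2740622 spanned 7.79 to 8.31 in EXT9-treated mice, 7.59 to 8.05 in EXT5-treated mice, 7.22 to 8.65 with BLM alone and 7.78 to 8.58 in saline controls. ILMN_2859619 spanned 7.79 to 8.71, 8.00 to 8.58, 7.75 to 9.30 and 8.09 to 9.39 in the same order of groups. On all 3 *Ogn* probes the BLM-treated mice had the widest range and every pair of groups overlapped. These ranges pool both runs for BLM-treated mice and saline controls. Within the second run the largest SD was that of BLM on ILMN_2740622 (0.35) and of saline on ILMN_2859613 (0.39, with 0.36 for BLM). On ILMN_2859619 it was that of EXT9 (0.37, with 0.22 for BLM).

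All 3 *Ogn* probes had a lower mean in BLM-treated mice than in saline controls, and 0 of 3 passed the test. The differences were -0.39 ± 0.15 for ILMN_2859613, -0.29 ± 0.11 for ILMN_2740622 and -0.32 ± 0.15 for ILMN_2859619 (limma, adjusted p = 0.26, 0.289 and 0.383), and these were the 3 members under an unadjusted p of 0.05 in this comparison. Within the second run they were -0.56, -0.47 and -0.49, and within the first run -0.22, -0.10 and -0.16, a gap between the runs that was not tested. Without the 3 arrays with raised adipocyte markers the *Ogn* differences were -0.37, -0.23 and -0.32 in the same order of probes.

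The *Ogn* probes gave unlike values in the EXT groups. Against saline controls EXT9 differed by -0.37 on ILMN_2859613 (adjusted p = 0.131), yet by 0.08 on ILMN_2740622 and 0.07 on ILMN_2859619 (adjusted p = 0.724 and 0.826). Without the 3 arrays with raised adipocyte markers ILMN_2859613 was called, at -0.56 (adjusted p = 0.0274), while the other *Ogn* probes stood at -0.05 and -0.04. That fit loses the lowest saline signal of each *Ogn* probe (replicate 4) and no EXT9 signal. Against BLM-treated mice EXT9 gave 0.02 on ILMN_2859613, 0.37 on ILMN_2740622 (adjusted p = 0.093) and 0.39 on ILMN_2859619 (adjusted p = 0.167).

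The *Ogn* values of the EXT groups depended on the run term. The first run read higher by 0.45, 0.69 and 1.01 on the 3 probes (adjusted p = 0.0202, 7.11e-05 and 1.64e-05), and without the run term EXT9 against BLM became -0.20, 0.02 and -0.11. Of the 12 tested member probes, 8 passed the test for the run, compared with 35.9% of all tested probes, while the 3 *Dcn* probes and *Lum* ILMN_3001540 did not pass. A fit without the run term called 6 members for EXT9 against saline controls, all lower, among 17.6% of all probes called lower in that fit.

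The compounds were given at the same dose and times. Over the 12 probes EXT9 minus EXT5 had a median of -0.06 with 3 of 12 above 0, beside a median of -0.0043 and 47.8% above 0 over all probes. Intervals for the difference were -0.34 to 0.27 on *Dcn* ILMN_2747959, -0.79 to 0.29 on *Dcn* ILMN_2596346, -0.32 to 0.22 on *Lum* ILMN_3001540 and -0.23 to 0.02 on *Bgn*. The largest distance from 0 relative to its error was that of *Fmod*.

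The members did not vary as 1 group across mice. After group means and run were taken out, the 3 *Dcn* probes correlated with each other at Pearson's r of 0.55 to 0.86 over the 24 arrays, and the 3 *Ogn* probes at 0.68 to 0.77. *Ogn* and *Prelp* formed a second block with r of 0.65 to 0.76. *Omd* went with the *Dcn* probes (0.36 to 0.66), whereas *Ogn* stood opposite to them (-0.47 to -0.13) and *Bgn* lay near 0 (-0.22 to -0.02). All points share the chip, the runs and the normalization.

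Neighbouring genes gave lower correlations than *Ogn* with *Prelp*. In the RefSeq annotation *Dcn* and *Lum* are neighbours in the genome, as are *Prelp* and *Fmod*, and *Aspn*, *Omd* and *Ogn* follow each other. *Lum* ILMN_3001540 correlated with the 3 *Dcn* probes at 0.25 to 0.52 over 24 arrays and at 0.03 to 0.30 over the 21 arrays without raised adipocyte markers. *Lum* ILMN_2773259 gave -0.21 to 0.19 and -0.52 to -0.50. The *Omd* probe correlated with the 3 *Ogn* probes at 0.20 to 0.32 over 24 arrays. For the *Prelp* and *Fmod* pair r was 0.43 and 0.04, and the *Lum* probes correlated with each other at 0.68 and 0.37. *Ogn* and *Prelp*, which are not neighbours, correlated at 0.55 to 0.66 without those arrays, and *Omd* and *Dcn* at 0.44 to 0.68.

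**Figure D4:**
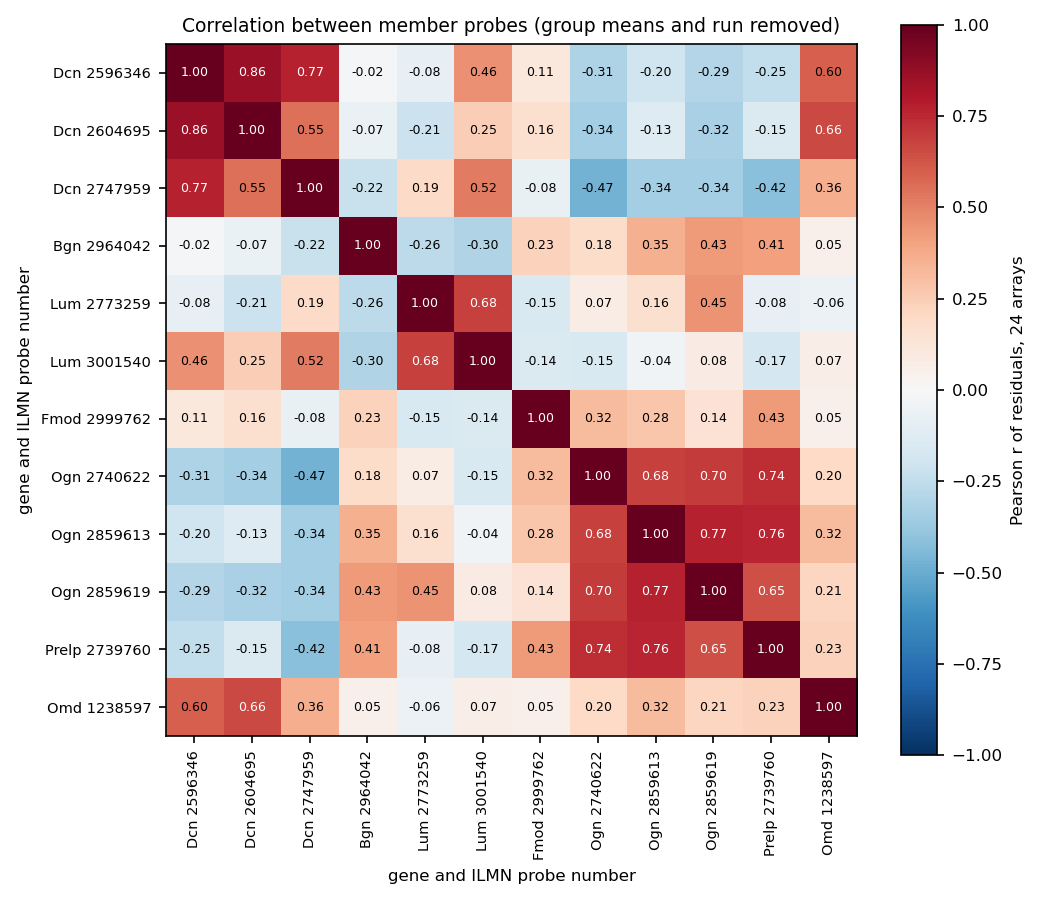
Pearson's r between the residuals of the 12 tested member probes over 24 arrays, with group means and run removed (both axes: gene and probe number). Red blocks are seen for the 3 *Dcn* probes with *Omd* (0.36 to 0.86) and for the 3 *Ogn* probes with *Prelp* (0.65 to 0.77).

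The 8 genes whose residuals were most like the mean of the 3 *Dcn* probes were *Cpe* (r = 0.897), *Crtap* (0.855), *Wfdc1* (0.826), *Acacb* (0.824), *Kif16b* (0.823), *Eola1* (0.81), *Aimp1* (0.808) and *Mapk9* (0.795), over 24 arrays. *Cpe* encodes carboxypeptidase E of the secretory pathway and *Crtap* a partner of the collagen prolyl hydroxylase complex. Without the 3 arrays with raised adipocyte markers these 8 values lay between 0.778 and 0.91. No other member was among these 8. The mean was taken without scaling and followed the most variable *Dcn* probe, ILMN_2596346 (r = 0.980), more than ILMN_2747959 (0.864) or ILMN_2604695 (0.857).

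The counts of list genes that follow stand beside 16.1%, 10.9% and 0.473% of all probes called for EXT9, EXT5 and BLM against saline controls. On the second-run arrays alone these shares were 6.36%, 3.98% and 0.0398%. The full fit called 1762 probes higher and 1894 lower for EXT9, and 1205 higher and 1274 lower for EXT5. Without the 3 arrays with raised adipocyte markers these counts were 942 and 1000 for EXT9, and 641 and 609 for EXT5. For BLM they went from 69 higher and 38 lower to 42 and 34. Of 10 further genes of the leucine-rich family, 8 were on the chip and 3 were tested. *Chad*, which encodes chondroadherin, a leucine-rich protein of cartilage matrix, fell in both EXT groups relative to saline controls. *Chad* ILMN_2659340 ranged from 8.54 to 9.01 in EXT9-treated mice and from 7.74 to 9.42 in EXT5-treated mice, against 9.41 to 10.46 in BLM-treated mice. In saline controls 5 of 6 lay between 9.81 and 10.97 and replicate 6 at 8.32. The difference from saline controls was -1.18 ± 0.35 for EXT9 (adjusted p = 0.0233) and -1.37 ± 0.35 for EXT5 (adjusted p = 0.0128), and -1.35 for EXT5 against BLM (adjusted p = 0.0315). EXT9 against BLM gave -1.16 and did not pass (adjusted p = 0.0529).

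The *Chad* calls against saline controls were lost without saline replicate 2 or 4 and on the second-run arrays alone (-1.15 and -1.33, adjusted p = 0.109 and 0.085). Without the 3 arrays with raised adipocyte markers *Chad* differed by -0.73 for EXT9 (adjusted p = 0.14) and -1.09 for EXT5 (adjusted p = 0.0455), and by -1.17 for EXT5 against BLM (adjusted p = 0.0846). The call against BLM was also lost in 6 of 24 fits without 1 array and on the second-run arrays alone (-1.38, adjusted p = 0.111). Of the 11 cartilage markers, 3 were tested, at medians of -0.02 and -0.04 for EXT9 and EXT5 against saline controls, with 0 called.

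Of 20 tested genes for enzymes that build chondroitin, dermatan and keratan sulfate chains, 2 rose and 1 fell with EXT9 against saline controls, and 0 were called with EXT5 or BLM (medians 0.08, 0.04 and 0.06). *Chst3*, a chondroitin sulfotransferase, spanned 8.00 to 8.68 in EXT9-treated mice and 8.28 to 9.77 in saline controls and differed by -0.71 ± 0.20 (adjusted p = 0.0192), a call lost on the second-run arrays alone (adjusted p = 0.0619) and with array weights (-0.52, adjusted p = 0.0813). It was also lost without saline replicate 2 (-0.67, adjusted p = 0.0551) or 6 (-0.46, adjusted p = 0.0807). *B3galt6* and *Fam20b*, which extend and phosphorylate the linkage to the core protein, rose by 0.20 and 0.17 (adjusted p = 0.0445 and 0.0454). These 2 small calls were lost in 16 and 17 of the 24 fits without 1 array and on the second-run arrays alone (adjusted p = 0.137 and 0.204).

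SLRPs act on collagen fibrils. Of 17 genes for fibrillar collagens and fibril-associated proteins, 5 rose and 1 fell with EXT9 and 5 rose and 0 fell with EXT5 against saline controls, while 0 were called with BLM. With the 3 arrays with raised adipocyte markers left out, 2 rose and 1 fell with EXT9 and 4 rose with EXT5. *Col6a1*, a chain of the beaded collagen VI that decorin and biglycan bind, rose by 0.48 ± 0.10 with EXT9 (adjusted p = 0.00326) and by 0.55 ± 0.10 with EXT5 (adjusted p = 0.00167). It spanned 11.92 to 12.24 in EXT9-treated mice and 11.69 to 12.32 in EXT5-treated mice, against 11.45 to 11.93 in saline controls.

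*Col6a2* rose by 0.42 with each compound (adjusted p = 0.00591 and 0.00748). *Col3a1*, a fibrillar collagen of vessels and lung, rose by 0.76 ± 0.17 with EXT5 (adjusted p = 0.00618) and by 0.78 on the second-run arrays alone (adjusted p = 0.0407). Without the run term the *Col3a1* difference was 0.24 (adjusted p = 0.583). *Pcolce*, an enhancer of procollagen processing, rose by 0.44 and 0.43 (adjusted p = 0.0182 and 0.0281), and both calls were lost without saline replicate 4 and on the second-run arrays alone (adjusted p = 0.106 and 0.152). *Loxl1*, a lysyl oxidase of elastic fibers, fell by 0.50 with EXT9 against saline controls (adjusted p = 0.008) and by 0.60 against BLM (adjusted p = 0.00718; 0.0558 on the second-run arrays alone), with 11.22 to 11.54 in EXT9-treated mice, 11.86 to 12.58 in BLM-treated mice and 11.70 to 12.30 in saline controls.

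**Figure D5:**
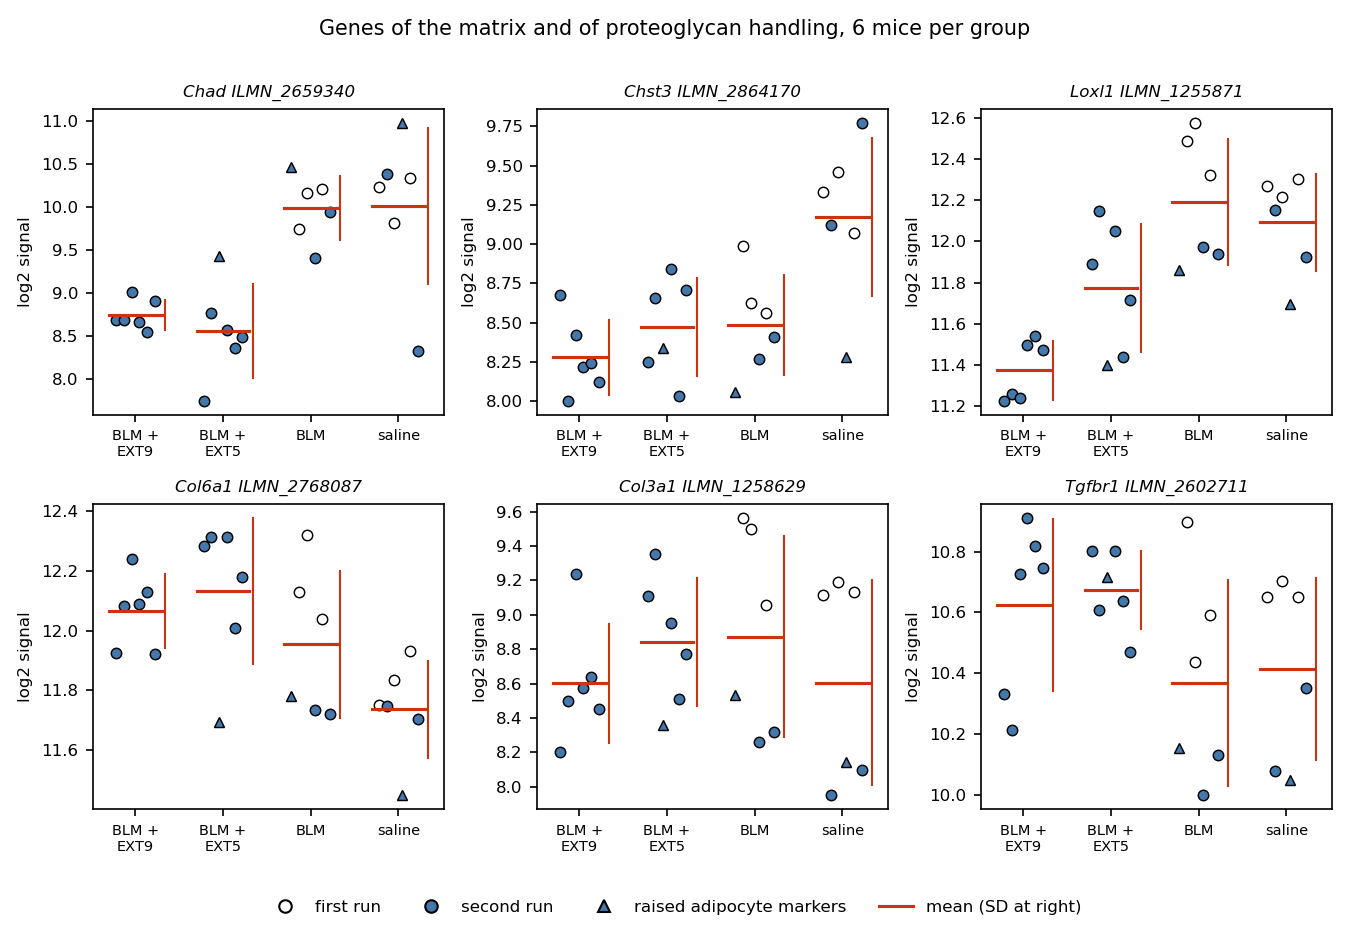
Log2 signal (y axis) of *Chad*, *Chst3*, *Loxl1*, *Col6a1*, *Col3a1* and *Tgfbr1* in each of 24 mice by group, with open points for the first array run, filled points for the second, triangles for the 3 arrays with raised adipocyte markers, and the mean with SD in red. *Chad* lay lower and *Col6a1* higher in the EXT groups than in saline controls, and *Col3a1* and *Tgfbr1* read higher in the first run.

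Among 16 ligands, receptors and processing enzymes of the family, 4 rose and 2 fell with EXT9, 4 rose and 1 fell with EXT5 and 1 rose with BLM against saline controls. These counts were 2 and 1, 3 and 0, and 0 without the 3 arrays with raised adipocyte markers. *Tgfbr1*, the type I receptor for TGF-β, rose by 0.47 with EXT9 and 0.52 with EXT5 (adjusted p = 0.00765 and 0.0054). Both calls held on the second-run arrays alone (0.46 and 0.51, adjusted p = 0.0445 and 0.0388) and in 24 of 24 fits without 1 array. Against BLM *Tgfbr1* rose by 0.52 and 0.57 (adjusted p = 0.0115 and 0.00876). The differences from saline controls without the run term were 0.21 and 0.26 (adjusted p = 0.312 and 0.256). *Tlr2*, a receptor for soluble biglycan, rose by 0.87 and 0.98 (adjusted p = 0.0116 and 0.007), calls lost on the second-run arrays alone (0.74 and 0.85, adjusted p = 0.0795 and 0.0617). *Mmp2*, a matrix protease, rose by 0.73 with EXT5 (adjusted p = 0.00165) and by 0.56 with BLM (adjusted p = 0.0347). The BLM call was lost in 8 of 24 fits without 1 array and on the second-run arrays alone (0.56, adjusted p = 0.493). That second-run fit called 9 of 22640 probes for BLM against saline controls.

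*Ccn2*, the matricellular growth factor that decorin binds, rose by 0.68 with EXT9 (adjusted p = 0.00475). *Tgfb3* fell by 0.34 with EXT9 (adjusted p = 0.0116), and *Igf1r*, a receptor bound by decorin, fell by 0.48 with EXT5 (adjusted p = 0.0148). On the second-run arrays alone both calls were lost (*Tgfb3* -0.27, adjusted p = 0.0516; *Igf1r* -0.51, adjusted p = 0.0559). The *Igf1r* call was also lost without saline replicate 2 (-0.40, adjusted p = 0.0746) or 4 (-0.45, adjusted p = 0.0547). *Mmp14*, a membrane protease that can cut SLRP cores, fell by 0.60 with EXT9 against BLM (adjusted p = 0.0019) and by 0.37 with EXT5 (adjusted p = 0.04), the EXT5 call being lost in 9 of 24 fits without 1 array and on the second-run arrays alone (adjusted p = 0.122).

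Of 16 proteoglycans outside the family, 3 rose with EXT9, 3 with EXT5 and 2 with BLM against saline controls, and 0 fell. *Spock2*, a testican, rose by 1.15 and 1.13 with EXT9 and EXT5 and by 0.96 with BLM (adjusted p = 0.000931, 0.00144 and 0.0185). The BLM call was lost on the second-run arrays alone (1.18, adjusted p = 0.205), where 0.0398% of all probes were called. *Sdc1*, the epithelial syndecan, rose by 0.46 and 0.40 with EXT9 and EXT5 (adjusted p = 0.00072 and 0.00271). *Agrn*, the basement membrane proteoglycan agrin, rose by 0.41 with BLM (adjusted p = 0.0404). This call was lost in 13 of 24 fits without 1 array and on the second-run arrays alone (0.50, adjusted p = 0.4). The remaining calls were small: *Bcan* rose by 0.13 with EXT9 and *Gpc4* by 0.19 with EXT5 (adjusted p = 0.0296 and 0.0179). Both were lost on the second-run arrays alone (adjusted p = 0.089 and 0.12), and that of *Bcan* in 6 of 24 fits without 1 array. The comparisons with saline share those 6 controls, as those with BLM share the 6 BLM-treated mice.

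Markers of cells that make SLRPs and of other cells were counted in the same way. Of 10 adventitial fibroblast markers, 1 fell with EXT9 and 1 with EXT5 against saline controls (medians -0.33 and -0.23), in both cases *Pi16* (-0.88 and -0.97, adjusted p = 0.0214 and 0.0158), and the means over the 10 spanned 8.68 to 9.10, 8.68 to 9.09, 9.01 to 9.47 and 9.03 to 9.57 in EXT9-, EXT5- and BLM-treated mice and saline controls. Both *Pi16* calls were lost without saline replicate 2 or 4, on the second-run arrays alone (adjusted p = 0.118 and 0.108) and without the 3 arrays with raised adipocyte markers (-0.57 and -0.78, adjusted p = 0.117 and 0.0519). Against BLM, 2 of the 10 fell with EXT9 and 1 with EXT5, beside 5.11% and 4.29% of all probes. *Pi16* was called with both (-1.12 and -1.21, adjusted p = 0.014 and 0.0124), also on the second-run arrays alone (adjusted p = 0.0447 and 0.0419). These 2 calls were lost without BLM replicate 1 (adjusted p = 0.0714 and 0.0606). *Scara5* fell with EXT9 (-0.68, adjusted p = 0.049), a call kept in 5 of 24 fits without 1 array. Against saline controls, 2 of 7 alveolar fibroblast markers fell with EXT9 and 0 were called with EXT5 (medians -0.18 and -0.06). Of 8 smooth muscle and myofibroblast markers, 7 fell with each compound (medians -0.80 and -0.90), and of 9 ciliated cell markers 8 fell with each (medians -0.73 and -0.89). The smooth muscle counts were 4 and 6 and the ciliated counts 3 and 5 without the 3 arrays with raised adipocyte markers. They were 7 and 8, and 9 and 9, without saline replicate 6. Calls over all probes fell as well without the 3 arrays, to 942 higher and 1000 lower with EXT9 and 641 and 609 with EXT5. Without saline replicate 6 they rose to 2097 and 2336 with EXT9 and to 1673 and 1800 with EXT5. Of 9 alveolar type 2 cell markers, 5 and 6 rose (medians 0.72 and 0.68), and 3 with each without the 3 arrays. Of 8 alveolar type 1 cell markers 5 rose with EXT9 and 4 with EXT5, of 6 macrophage markers 5 rose with each (1 and 4 without the 3 arrays), and of 6 cardiac muscle markers 1 fell with each. Of 4 club cell markers 1 rose with EXT9, of 3 adipocyte markers 1 rose with EXT5, and of 6 mesothelial and 7 endothelial markers 0 were called with either. With BLM against saline controls 0 markers of these cell types were called, but 6 alveolar type 1 cell markers rose without saline replicate 6. In that fit the BLM calls over all probes went from 69 higher and 38 lower to 310 higher and 329 lower. The part of cell makeup in the *Dcn*, *Lum* and *Chad* values was not tested.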

How the data were processed

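Distal lung RNA of 24 mice was hybridised to Illumina MouseWG-6 v2 chips. The authors deposited linear intensity values, quantile normalized by them, for 45281 probes. The software and background correction are not given in the sources used here. Their table of non-normalized signals and detection p-values was not used, because its column names match no sample. log2 was taken with a pseudocount of 0. The array run is not given per sample and was inferred from the 2 sorted distributions (6 and 18 arrays). The 50% of probes with the higher mean were fitted with limma 3.58.1 in R 4.3.3 (lmFit, eBayes; group and run as terms; statmod 1.5.0 for the random block), tested on simulated data. The members and lists were chosen with earlier results of these data known. Named genes were all member probes, the 8 genes most like *Dcn*, and of each list at most 4 genes with the smallest p, read by their brightest probe. *Vcan* was left out of its list because its first-run values are displaced. Each mouse is a separate replicate, and the number of arrays limits the precision. Alternatives were the fit without run, single runs, joint quantile normalization, median centring, other filters (none, upper 25%), trend and robust options, array weights, replicate and random blocks, and each array left out. Leaving out displaced probes or the 3 arrays with an adipocyte marker mean above 8 was chosen after seeing the data.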

Additional observations from a re-analysis of the deposited data

Results flagged for a closer look

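Within groups of 6 mice, 60 probe and group combinations of the 15 member probes were examined for a single mouse far from the others (gap to the nearest over the whole range, Dixon's test at 95%). Of the 60, 4 stood out, a number close to the 1 in 20 that chance gives. The flagged probes correlate with each other within each mouse's pair, so the 4 are not separate events. EXT5 replicate 3 was high on both lumican probes: *Lum* ILMN_2773259 read 7.14, with 6.72 to 6.85 in the other EXT5-treated mice, and *Lum* ILMN_3001540 read 7.62, with 6.79 to 7.06 in the others. Saline replicate 4 was low on a pair of probes: *Ogn* ILMN_2859613 read 12.48, with 13.13 to 13.24 in the other saline controls, and *Prelp* ILMN_2739760 read 13.20, with 13.68 to 13.79 in the others. Both mice are among the 3 with raised adipocyte markers (means of 8.94 and 8.73), and the part of other tissue in these values was not tested. The saline group spans both array runs.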

How the results depend on the processing

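The 12 tested member probes in 6 comparisons gave 2574 values over 37 alternatives, of which 24 left out 1 array. Of these values, 2537 kept their side of the threshold, 14 lost a call, 23 gained one and 0 calls changed sign, while 85 uncalled values did. Since the main fit held only 1 call, nearly all values could only stay uncalled or gain one, and 2537 is no measure of stability. All 14 losses were of that call, *Lum* ILMN_3001540 for EXT9 against saline controls, 10 of them with 1 array left out. The count of called members for EXT9 against saline controls was 6 without the run term (23.1% of all tested probes called) and 0 on the second-run arrays alone (6.36%). It was 0 with no filter on dim probes (more probes tested) and 0 to 3 with 1 array left out, with 0 in 8 of the 24 fits. For EXT5 against saline controls it was 1 without the run term (14.6% of all tested probes), 1 with array weights (1473 probes higher and 1643 lower) and 0 to 2 with 1 array left out. The 2 came without EXT5 replicate 3, where 1172 probes were called higher and 1309 lower. For EXT9 against BLM it was 1 without the run term (10.1% of all tested probes). The cause of these shifts was not tested. Replicate numbers are shared between groups, but arrays of the same number did not deviate together (r of -0.40 to 0.37 over 36 pairs, 11 above 0.1, and 3 of 24 arrays closest to their own number), so the numbers were not taken as pairs. With the replicate block beside the run, 3 members were called for EXT9 and 2 for EXT5 against saline controls. Of all 22640 tested probes, that fit called 1518 higher and 1608 lower for EXT9, and 983 higher and 1093 lower for EXT5. Without the 3 arrays with raised adipocyte markers, an alternative chosen after seeing the data, 1 member was called for EXT9 against saline controls, *Ogn* ILMN_2859613 in place of *Lum* ILMN_3001540. That fit called 942 probes higher and 1000 lower, and it leaves out no EXT9 array. Leaving out displaced probes, also chosen after seeing the data, changed no member's call. Dim probes near 6.7 on the log2 scale understate changes, and 6 mice per group, split over runs in BLM-treated mice and saline controls, limit the precision.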
